A study of Mus musculus with 4 samples.

Results

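The genes described here are 5 ceramide synthases (Cers1, Cers2, Cers4, Cers5 and Cers6) and Gdf1, a growth factor gene that lies on the same stretch of chromosome 8 as Cers1. They were taken by symbol, 6 of the 17778 genes listed for the medial prefrontal cortex (mPFC), which is part of the frontal neocortex. The genes were chosen by a value of the comparison itself, the low listing of Cers1 in stressed mice, so that their values are given as a description, with no test. A further ceramide synthase of the table, Cers3, was under 0.5 RPKM in both groups (0.19 in control and 0.15 in CUMS, in reads per kilobase of gene, scaled to library size, or RPKM) and was not followed.

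Messenger RNA was sequenced from the mPFC of male C57BL/6 mice (C57BL/6J in the methods of the study), a common inbred strain. The mice were juvenile when they entered the study. The tissue was taken later, after adaptation, weeks of stress or control housing, and the behavioral tests. The CUMS group (2 libraries) came from mice that had lived under chronic unpredictable mild stress (CUMS), a schedule of changing mild stressors, and that afterwards showed depression-like behavior in tests of sucrose preference, Y-maze and forced swimming. The control group (2 libraries) came from mice kept without these stressors. Stressed mice without depression-like behavior were not sequenced, so that the CUMS group stands for the vulnerable mice alone, and it is not stated whether each library came from 1 mouse. Tissue dissected from both sides of the mPFC was used, so that every value is a mean over neurons, glia and vessels.

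Each gene had 1 control mean and 1 CUMS mean, each over 2 libraries, and no value for a single library. No difference below could therefore be compared with the variation among mice. The depth was estimated from the steps in the low values as 7442414 fragments in each control library and 7526153 in each CUMS library. Intervals in the text are exact 95% intervals on these estimated fragments (Clopper-Pearson for a ratio or a share, Poisson for a level), and they cover counting error only. A gene was said to rise or fall when its fold exceeded 1.5 and this interval left out a ratio of 1. The median log2 ratio of CUMS over control was -0.015 over the 14257 genes that reached 0.5 RPKM in control or in CUMS.

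Ceramide is the core of the sphingolipids, the lipids that give rise to sphingomyelin, to the galactolipids of myelin and to the gangliosides of neurons. Ceramide synthases sit in the endoplasmic reticulum and join a fatty acyl-CoA to a sphingoid base, and each member prefers acyl chains of a certain length. Cers1 is the stearoyl-specific enzyme of neurons, Cers2 uses very long chains and is abundant in oligodendrocytes, Cers4 uses long to very long chains, and Cers5 and Cers6 use palmitoyl-CoA. Gdf1 is a ligand of the transforming growth factor beta family that acts with Nodal when the left-right axis of the embryo is set. In mammals, Cers1 and Gdf1 are known to be encoded on a common messenger RNA.

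The arrangement of the Cers1 and Gdf1 transcripts bears on every value of both genes, and it is shown first. Cers1 (gene 93898) spans chr8:70315775-70331588 and Gdf1 (gene 14559) spans chr8:70315775-70331592, both on the plus strand of GRCm38 (mm10), and the spans share 15814 bases. The GENCODE M21 transcript that RefSeq gives to Cers1 had 8 exons and 2711 bases. The transcript that RefSeq gives to Gdf1 had 8 exons as well and 2728 bases, and it held the whole Cers1 transcript with 12 more bases at the 5′ end and 5 more at the 3′ end. A short Gdf1 transcript of 2 exons and 1349 bases lay within the same exons. By the RefSeq assignment, the Cers1 transcript thus had 0 bases of its own. Only a further Cers1 model, a retained intron of 787 bases, had bases outside the RefSeq Gdf1 transcripts (443). GENCODE itself lists the 2728-base transcript under Cers1, and only the 1349-base transcript under Gdf1. By that assignment, Cers1 has exons of its own upstream of the short transcript. The gene lengths used by the authors were 2741 bases for Cers1 and 2564.5 for Gdf1. Neither equals the length of a transcript given here, and that of Gdf1 lies between 1349 and 2728 bases. The annotation and the strand setting by which the fragments had been counted were not stated. How the fragments of the shared exons were divided between both genes is therefore unknown, and the value listed for each of them is uncertain.

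**Figure D1:**
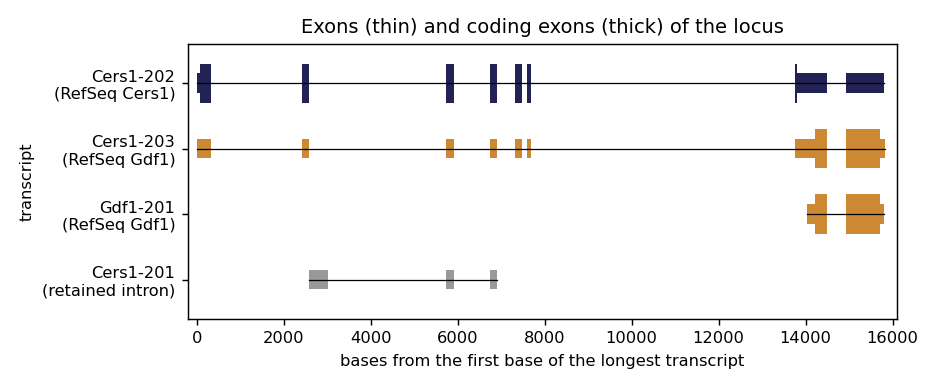
The 4 annotated transcripts of the locus are drawn to scale by their distance in bases from the first base of the longest one, with exons as thin boxes and coding exons as thick boxes, dark for RefSeq Cers1, orange for RefSeq Gdf1 and gray for the retained intron. The exons of the RefSeq Cers1 transcript all lie within those of the 2728-base RefSeq Gdf1 transcript. The coding exons of Gdf1 lie downstream of those of Cers1.

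The coding frames of both genes did not overlap. On the 2728-base transcript, the Cers1 frame began at base 86 and its stop codon ended at base 1138, and the Gdf1 frame began at base 1540, after 401 bases between the frames. The Cers1 frame encoded 350 amino acids and the Gdf1 frame 357. The starts of both frames and the end of the Cers1 frame are shown because they mark the borders of both frames on the shared transcript. The stretches come from the GENCODE M21 transcripts and are read on the plus strand, with the start or stop codon in capitals. They lie at chr8:70315860-70315904 (first exon), chr8:70329538-70329580 (seventh exon) and chr8:70329982-70330026 (seventh exon).
Cers1 start: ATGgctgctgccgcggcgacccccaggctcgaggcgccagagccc
Cers1 end: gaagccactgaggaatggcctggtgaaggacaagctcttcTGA
Gdf1 start: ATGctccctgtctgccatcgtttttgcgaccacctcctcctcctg
The end of Cers1 and the beginning of Gdf1 stood in the same exon. By the RefSeq assignment, a fragment from any exon of the Cers1 transcript is part of the 2728-base Gdf1 transcript as well. The short Gdf1 transcript begins within the seventh exon, after the Cers1 stop codon.

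Both genes also had the same first promoter in the RefSeq promoter table of this build, identical over the 300 bases given. Gdf1 had a second promoter in that table, at chr8:70329515-70329814 before its short transcript, with a GC content of 59.2% and 2 GC boxes in its 250 upstream bases. The 250 bases before the shared start are shown because they precede the transcript that holds both frames. They lie at chr8:70315525-70315774 on the plus strand, with a GC box (GGGCGG, searched on both strands) in capitals.
Cers1 and Gdf1 promoter: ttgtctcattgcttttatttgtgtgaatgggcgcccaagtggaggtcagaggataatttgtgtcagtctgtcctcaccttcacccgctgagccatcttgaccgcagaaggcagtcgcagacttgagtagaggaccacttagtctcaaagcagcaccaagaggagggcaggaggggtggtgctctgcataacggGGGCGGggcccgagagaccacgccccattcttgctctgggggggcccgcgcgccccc
The GC box began 57 bases before the start, and 32.7% of the 32851 mouse promoters of the same length held these letters. The window held no TATA box (TATAAA, in 12.4% of promoters), no CCAAT box (CCAAT, in 33.9%), no E box (CACGTG, in 6.02%) and no core of the cAMP response element (TGACG, in 17.8%). Its GC content was 59.2% with 11 CpG, beside a median GC content of 52.4% over all promoters. The first promoters of the other ceramide synthases were richer in GC, with 63.2% in Cers4, 65.6% in Cers5, 70.4% in Cers6 and 74.8% in Cers2. A second promoter of Cers2 was poorer in GC, with 54.0%. These matches describe the letters only.

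Cers1 mRNA was listed at 4.685 RPKM in control (4.04 to 5.39), from 191 estimated fragments over both libraries. In CUMS it was listed at 0.01 RPKM, the lowest value of the table, which stood for 0 fragments in both libraries. A floor of 3 fragments corresponds to 0.0727 RPKM, and against this floor the listed level of Cers1 was at least 64.4-fold lower in CUMS. The floor leaves out the counting error of the control value, and the exact interval of the log2 ratio, which includes it, reached up to -5.70. Since only the control mean is given, it cannot be told whether the 191 fragments came from 1 control library or from both. Cers1 was the only one of the 6 genes past the fold threshold, and 3.07% of the 14257 genes were past it with a lower value in CUMS.

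Gdf1 was listed at 56.3 RPKM in control (53.9 to 58.7) and at 64.2 RPKM in CUMS (61.7 to 66.7), from 2148 and 2477 fragments. The log2 ratio was 0.19 (0.11 to 0.27), a 1.14-fold higher value in CUMS that was within the fold threshold. Of the 6 genes, 0 were past the threshold with a higher value, beside 1.48% of all genes. In control, the level per length listed for Gdf1 was 12.01-fold that of Cers1.

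**Figure D2:**
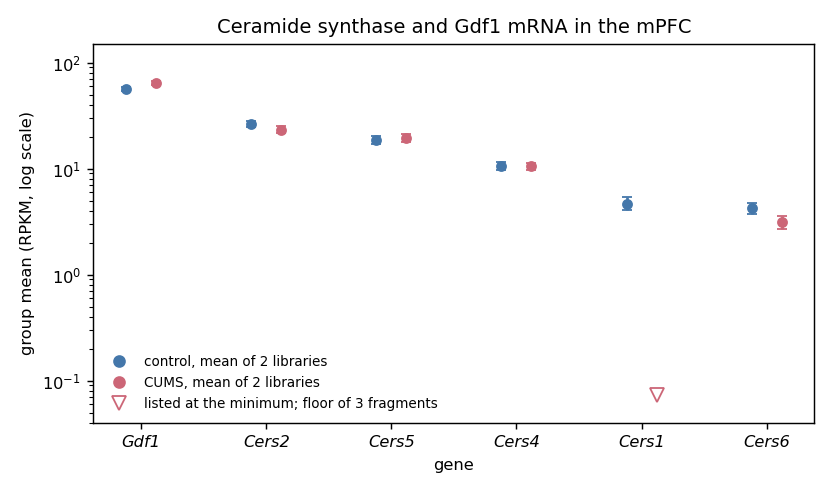
Group means in RPKM on a log axis for the 6 genes, with control in blue and CUMS in red, each the mean of 2 libraries, and bars for the exact Poisson 95% interval of the estimated fragments. Of the 12 values, the one of Cers1 in CUMS stands apart from its counterpart, drawn as an open triangle at the floor of 0.0727 RPKM beside 4.685 RPKM in control, and the pairs of Cers4 (10.7 and 10.5) and Cers5 (18.8 and 19.4) lie on a level.

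Summed over the locus, the fragments of Cers1 and Gdf1 were 2339 in control and 2477 in CUMS. The log2 ratio of this sum was 0.07 (-0.016 to 0.15), so that the interval of the sum did not leave out a ratio of 1. Cers1 held 8.17% of the locus fragments in control (7.09 to 9.35), and 0 of 2477 in CUMS. The fragment floor used above for Cers1 would be 0.121% of the CUMS total. That share is set by the floor and is not the upper end of an exact interval. From control to CUMS, 191 fragments fewer were listed under Cers1 and 329 more under Gdf1. In the sum of RPKM, 61.0 in control stood beside 64.2 in CUMS. The table gave both genes the same pathway and ontology entries. The division of the locus thus differed between the groups, and the interval of its total included a ratio of 1. Whether cells made less Cers1 messenger cannot be told apart from a different division of fragments in these values.

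**Figure D3:**
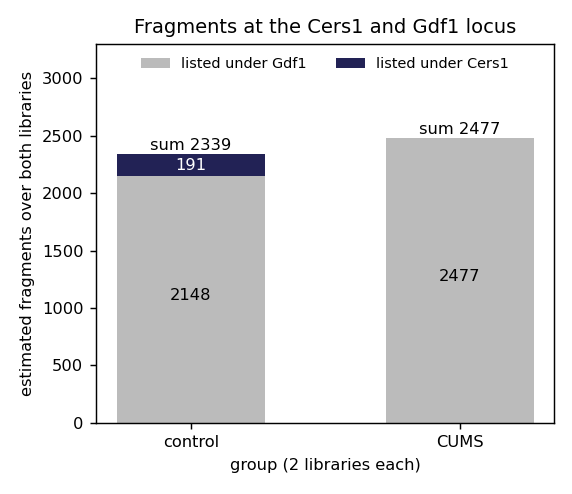
Estimated fragments over both libraries of a group at the Cers1 and Gdf1 locus, stacked by the gene they were listed under, with Gdf1 in gray and Cers1 in dark blue. The control bar reaches 2339 with 191 fragments under Cers1, and the CUMS bar reaches 2477 with Gdf1 alone.

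The genes around the locus were taken by position alone, 5 on each side. Of these 10 genes, 9 reached 0.5 RPKM and 0 were past the fold threshold in either direction. Their median log2 ratio was -0.015, and they ranged from -0.18 to 0.03. The nearest gene on one side, Cope, a subunit of the coatomer of vesicles, had 88.7 RPKM in control and 78.4 in CUMS (log2 -0.18, -0.29 to -0.067). The nearest on the other side, Upf1, a helicase of nonsense-mediated decay, was 25.4 and 22.6 RPKM (log2 -0.17, -0.27 to -0.068). Upf1 lies on the opposite strand and overlaps the end of Cers1 by 96 bases and that of Gdf1 by 100. Those were the only neighbours whose interval left out a ratio of 1. Crtc1, a coactivator of CREB, was 61.4 and 60.7 RPKM, and Tmem59l was 194 and 198 RPKM. Homer3, a postsynaptic scaffold, was 7.12 and 6.90 RPKM, and Armc6 was 16.8 and 16.6. Sugp2 (31.0 and 31.2), Ddx49 (16.9 and 17.0) and Klhl26 (23.6 and 24.1) were on a level as well. Comp was under 0.5 RPKM in both groups (0.305 and 0.255).

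Cers2 (gene 76893, chr3:95314771-95323599), the synthase of very long chains, was 26.5 RPKM in control (24.7 to 28.4) and 23.3 in CUMS (21.6 to 25.1). Its log2 ratio was -0.19 (-0.33 to -0.040), 1.14-fold lower, within the fold threshold. Its span overlaps Setdb1, a histone methyltransferase, by 75 bases and Anxa9, an annexin, by 410 bases, both on the opposite strand. Setdb1 was 13.1 and 12.7 RPKM, and Anxa9 was 0.67 and 0.665 RPKM.

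Since Cers2 is abundant in oligodendrocytes, the markers of mature oligodendrocytes are given beside it. Of 10 such markers, 4 fell past the threshold and 0 rose, beside 3.07% and 1.48% of all genes. In CUMS, 9 had a lower value and 1 a higher one, and their median log2 ratio was -0.50. In 8 of the 10, all lower in CUMS, the interval left out a ratio of 1, beside 16.9% of all genes. Summed, the 10 markers gave 1892 RPKM in control and 1289 in CUMS, and none was at the minimum. Myelin basic protein (Mbp) fell from 1167 to 774 RPKM (log2 -0.59, -0.62 to -0.57). In this bulk tissue, fewer cells of a type and less RNA per cell cannot be told apart. The part of these cells in the value of Cers2 was not tested.

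Cers6 (gene 241447, chr2:68861145-69114284), a palmitoyl-CoA synthase, was 4.225 RPKM in control (3.71 to 4.78) and 3.125 in CUMS (2.69 to 3.61), from 247 and 185 fragments. Its log2 ratio of -0.44 (-0.72 to -0.15) was the lowest among the synthases other than Cers1, at 1.352-fold lower, and 7.02% of all genes had a lower ratio. It was also within the fold threshold.

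Cers5 (gene 71949, chr15:99735592-99772515), the other palmitoyl-CoA synthase, was 18.8 RPKM in control (17.2 to 20.3) and 19.4 in CUMS (17.9 to 21.03). The log2 ratio was 0.05 (-0.12 to 0.22). Cers4 (gene 67260, chr8:4492818-4529603), also on chromosome 8 but far from the Cers1 locus, was 10.65 RPKM in control (9.79 to 11.5) and 10.5 in CUMS (9.65 to 11.4), with a log2 ratio of -0.02 (-0.19 to 0.15). In neither gene did the interval leave out a ratio of 1.

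Counting error alone was exceeded in 4 of the 6 genes. Lower values in CUMS whose interval left out a ratio of 1 were listed for Cers1, Cers2 and Cers6, beside 16.9% of all genes, and a higher value for Gdf1, beside 12.6% of all genes. Such intervals are narrow for well expressed genes and say nothing of the differences between mice.

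**Figure D4:**
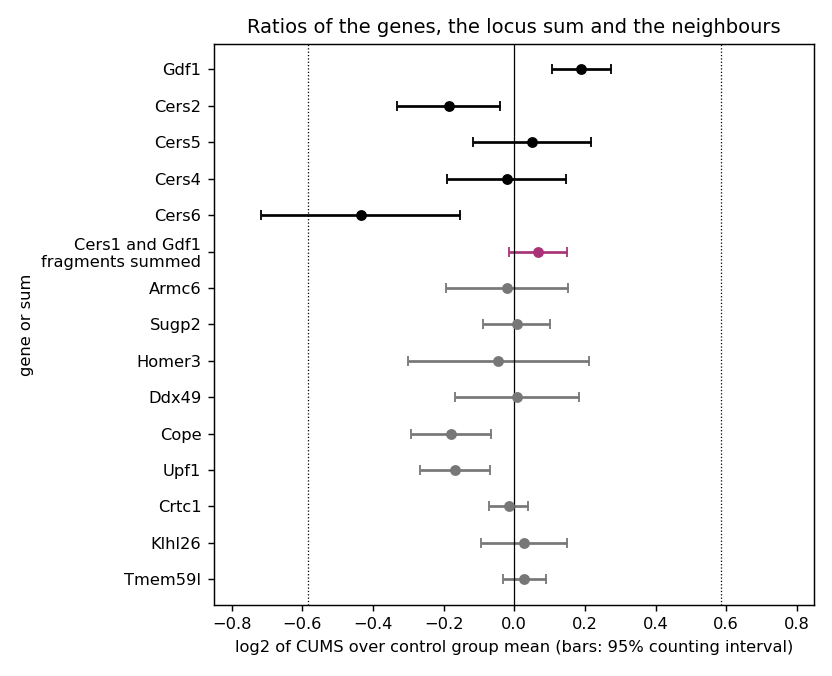
Log2 ratio of the CUMS over the control group mean for 5 of the genes (black), the summed fragments of Cers1 and Gdf1 (purple) and the 9 neighbours of at least 0.5 RPKM (gray), with 95% counting intervals as bars and the 1.5-fold limits as dotted lines. All points lie between the dotted lines, Cers6 being the lowest at -0.44 and Gdf1 the highest at 0.19, and the sum at 0.07 lies near 0. Cers1, for which only a bound exists, is not drawn.

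Ordered by level per length, control and CUMS had the same first 4 genes. Gdf1 was the highest, 2.12-fold above Cers2 in control and 2.75-fold in CUMS. Cers2 was 1.41-fold above Cers5 in control and 1.20-fold in CUMS, and Cers5 was 1.76-fold and 1.85-fold above Cers4. The intervals of these neighbours in the order did not overlap. Cers1 and Cers6 closed the order in control, with intervals that overlapped (4.685 and 4.225 RPKM). In CUMS, Cers6 was the fifth and Cers1 the last.

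Taken as listed, the RPKM of the 5 synthases summed to 64.9 in control and 56.4 in CUMS, a change of -13.1%. Cers2 held 40.9% of the sum in control and 41.4% in CUMS, Cers5 held 28.9% and 34.4%, Cers4 held 16.4% and 18.6%, and Cers6 held 6.52% and 5.54%. Cers1 held 7.22% in control. Without Cers1 the sums were 60.2 and 56.4 RPKM, a change of -6.32%. With the summed RPKM of Cers1 and Gdf1 in place of Cers1, the sums were 121 in control and 121 in CUMS, a change of -0.479%. The change of the family total thus depended on how the shared locus was counted.

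The genes that make, convert and break down ceramide, those of sphingosine 1-phosphate and those of Gdf1 and Nodal signaling were read from 8 lists of 90 genes, of which 89 were in the table and 77 reached 0.5 RPKM. Of these 77 genes, 3 fell past the threshold and 0 rose, beside 3.07% and 1.48% of all genes, and the median log2 ratio was -0.027 beside -0.015 over all genes. Of the 77 genes, 13 had a lower and 7 a higher value whose interval left out a ratio of 1. Over all genes these shares were 16.9% and 12.6%. The genes that fell were Fa2h, S1pr2 and Acvr2b.

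Among 10 sphingoid base genes, which make the substrate of the ceramide synthases and turn dihydroceramide into ceramide, 0 were past the threshold and the median log2 ratio was -0.0045. Degs1, the dihydroceramide desaturase, was 37.9 RPKM in control and 34.1 in CUMS. Ormdl3, a brake on serine palmitoyltransferase, was 30.3 and 26.8 RPKM. Sptssa, a small subunit of that enzyme, was 17.3 and 16.1 RPKM. Among 11 elongation genes, which make the long acyl-CoA that ceramide synthases use, 0 were past the threshold as well (median -0.099). Their most abundant members were Tecr (313 and 304 RPKM), the last enzyme of the elongation cycle, Ptplad1 (71.4 and 74.9), a dehydratase of that cycle, and Hsd17b12 (36.2 and 33.8), its ketoreductase.

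Of 5 genes that move ceramide to sphingomyelin or ceramide phosphate, 0 were past the threshold (median -0.051). Ceramide kinase (Cerk) was 20.6 RPKM in control and 16.2 in CUMS (log2 -0.34, -0.45 to -0.22). Samd8, which makes ceramide phosphoethanolamine, was 14.7 and 14.9 RPKM, and Col4a3bp, the ceramide transfer protein, was 12.3 and 12.2.

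Of 12 glycosphingolipid genes, 1 fell and 0 rose (median -0.00024). Fa2h, the fatty acid hydroxylase that supplies the hydroxylated galactolipids of myelin, fell from 15.7 to 10.1 RPKM (log2 -0.64, -0.83 to -0.45). Mature oligodendrocytes express it, and the values of their markers are those given beside Cers2. Their part in the value of Fa2h was not tested. The ganglioside genes were the most abundant of the list. B4galnt1, which makes the complex gangliosides, was 73.3 and 77.7 RPKM. St3gal5, the synthase of the first ganglioside, was 63.1 RPKM in control and 82.0 in CUMS (log2 0.38, 0.30 to 0.46), the highest ratio of all 77 genes and within the threshold. St3gal2, a sialyltransferase, was 34.9 and 35.6 RPKM.

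Of 16 genes that release or break down ceramide, 0 were past the threshold (median 0.015). Psap, the precursor of the saposins, was 822 RPKM in control and 818 in CUMS. Acid sphingomyelinase (Smpd1) was 62.9 and 63.7 RPKM. Of 10 genes of sphingosine 1-phosphate, 1 fell and 0 rose (median -0.071). S1pr2, a receptor of this lipid, fell from 1.625 to 0.94 RPKM (log2 -0.79, -1.38 to -0.20), from 68 and 40 fragments. S1pr1, the most abundant receptor, was 49.7 and 55.9 RPKM. The exporter Spns2 was 22.9 and 21.4, and the kinase Sphk2 was 18.6 and 17.8.

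Gdf1 signals through activin receptors, and 13 genes of this route reached 0.5 RPKM (median -0.060). Of these, 1 fell and 0 rose. Acvr2b, a type II receptor, fell from 1.73 to 0.84 RPKM (log2 -1.04, -1.83 to -0.25), from 44 and 22 fragments, so that its size is poorly known. The type I receptor Acvr1b was 45.01 and 49.8 RPKM, the transducer Smad3 was 19.2 and 22.5, and the protease Furin was 13.1 and 12.5. Nodal itself, the embryonic partner of Gdf1, was named for its role rather than by rule, and was near the limit of detection with 0.21 and 0.385 RPKM (7 and 12 fragments).

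Markers of other cell types were read in the same way. Those of excitatory cortical neurons summed to 1560 RPKM in control and 1871 in CUMS. All 6 were higher in CUMS with an interval that left out a ratio of 1, beside 12.6% of all genes. Their median log2 ratio was 0.32, and 0 of 6 were past the threshold. The GABAergic markers fell in 3 of 3 genes, beside 3.07% of all genes (median -0.78, sums of 279 and 173 RPKM). Astrocyte markers (5 genes, median 0.073, 306 and 303 RPKM) and microglia markers (5 genes, median 0.14, 87.7 and 95.4 RPKM) had 0 genes past it. Of 3 endothelial markers 1 fell, beside 3.07% of all genes (median -0.31, 54.1 and 39.6 RPKM). Markers of striatal projection neurons, cells of a neighbouring region, had 0 of 6 past the threshold and a median of -0.27 (315 and 271 RPKM). All 6 were lower in CUMS with an interval that left out a ratio of 1, beside 16.9% of all genes. No marker was at the minimum in either group. The part of any of these cells in the values of the ceramide synthases was not tested.

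The listing of Cers1, at the minimum in one group and well above it in the other, was rare in the table. Only 8 genes were at the minimum in 1 group and at 1 RPKM or more in the other, 4 of them at the minimum in CUMS and 4 in control. Cers1 had the most fragments of those at the minimum in CUMS. The others were Omp, a protein of olfactory sensory neurons (1.505 RPKM and 49 fragments in control, at least 16.4-fold lower against the floor, with a log2 interval up to -3.69), S100a5, a calcium-binding protein of the olfactory system (2.505 RPKM and 16 fragments, at least 5.43-fold lower against the floor, with a log2 interval up to -1.96), and Snora64, a small nucleolar RNA with 2 fragments, for which no fold is given. Of the 8 genes, 4 overlapped another gene of the table, among them Cers1, Omp (with Capn5) and Snora64 (with Rps2). The share of all genes that overlap another gene was not computed, so that no link is drawn from this count.

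Pairs of genes whose spans overlapped by at least 90% of the longer one numbered 61, and 57 of these were pairs of the protocadherin clusters. The other 4 were Cers1 with Gdf1, Ugt1a7c with Ugt1a6b, Gm16845 with Ecsit, and C1qtnf5 with Mfrp, named after their values were seen. In 2 of the 61 pairs a gene was at the minimum in 1 group only, the pair of Cers1 and that of Ugt1a6b, which was 0.175 RPKM in control and listed at 0.01 in CUMS. Its partner Ugt1a7c was 0.39 and 0.375 RPKM. All values of this pair were under 0.5 RPKM, unlike the control value of Cers1. The share of all genes at the minimum in 1 group only was not computed.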

How the data were processed

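The authors extracted poly(A) RNA of the mPFC, sequenced it as cDNA libraries on an Illumina HiSeq, trimmed the reads with SolexaQA and aligned them to mm10 with TopHat 1.0.12 and Bowtie 0.11.3 (versions per the submitters' processing notes). Reads aligned uniquely to genes were counted, and the annotation and the use of strand are not given in the sources used here. The deposited values are RPKM that the authors averaged over the 2 libraries of each group, with the gene length in bases that they used (2586 lengths were not whole numbers). The deposited columns of the authors' own comparison (a log2 ratio, its direction and a NOISeq probability) were not used. NOISeq, a test over animals and a replicate block need a value per library and were not run.

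The 6 genes, the gene lists and the alternatives were chosen with earlier results of these data known. Named are the 6 genes, genes overlapping them, the 5 nearest genes on each side of Cers1, in each pathway list the genes past the threshold and the 3 with the highest mean RPKM, and genes at the minimum in CUMS with 1 RPKM or more in control. From the marker lists only Mbp is named. One gene that this rule names is not reported here.

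In genes under 1000 bases, the product of group mean and length rises by a fixed step per fragment. The steps were 67.2 (control) and 66.4 (CUMS) RPKM x bases. Each was refined from a coarse step, of which 87.9% and 87.5% of 406 and 392 values were whole multiples to within 0.15. The coarse step was chosen to make this share high, so that the share is no check of the steps. The depths from these steps are estimates that assume libraries of equal depth within a group. They are lower than the read numbers the study gives. A larger depth would narrow the intervals. Duplicates could not be removed. Means of 0.01 RPKM (590 in control, 619 in CUMS) stood for 0, and a fold against them was computed from a floor of 3 fragments over the group. The estimator was tested on simulated data. Levels of overlapping genes are uncertain. Coordinates come from the RefSeq table of GRCm38.p6 (17731 of 17778 genes matched by identifier), transcripts from GENCODE M21 and promoters from RefSeq. Python 3.11.15, numpy 2.4.6, pandas 2.3.3, scipy 1.17.1 and matplotlib 3.10.9 were used.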

Additional observations from a re-analysis of the deposited data

How the results depend on the processing

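No paired analysis was possible because each group had 1 deposited mean per gene, and for the same reason no replicate could be left out. Of the 6 genes, 1 was past the threshold at a fold of 2, with a 99% interval, without an RPKM minimum, with CUMS rescaled to a median log2 ratio of 0 and with doubled fragments. At a threshold of 0.32 on the log2 scale they were 2, Cers6 being added. At a minimum of 5 RPKM they were 0, since Cers1 is below it in both groups. Over all genes 649 were past the threshold, 249 at a fold of 2, 1521 at 0.32 (log2) and 150 at a minimum of 5 RPKM. The log2 ratio of Cers1, -6.01 against the floor of 3 fragments, was -3.35 with a pseudocount of 0.5 RPKM and -8.87 with the table minimum as it stands, so that no single size can be given. The other 22 recomputed ratios moved by less than their counting interval, and rescaling shifted all ratios by 0.015 or -0.0076 on the log2 scale. The change of the summed synthase level (-13.1%) was -6.32% without Cers1 and -0.479% with Cers1 and Gdf1 summed in its place, the latter added after seeing the data, as were the pairs of overlapping spans. The share of Cers2 in control (40.9%) was 44.1% and 21.9% in these settings. Pathway genes past the threshold (3) were 8 at a threshold of 0.32 (log2) and 1 at a minimum of 5 RPKM. Without a minimum they were 4, S1pr4 being added. Genes at the minimum in 1 group (8 at 1 RPKM or more in the other) were 23 at 0.5 RPKM and 4 at 2 RPKM. Depth limits genes with few fragments, such as Acvr2b, and the table gives no spread between mice for any value.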
